A study of Mus musculus with 31 samples.

Results

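The comparison described here sets 5 liver adenomas labelled MLXKO against 5 livers of old wild type (WT) mice. The groups were taken from the source names and genotypes that the submitters gave, and they make up 10 of the 31 libraries of the series. The adenoma mice carried Alb_CreERT2 + Mlxloxp/loxp, in which the albumin promoter drives a tamoxifen-dependent Cre recombinase in hepatocytes and both Mlx alleles are floxed. The WT mice were C57/B6, with no Cre named. Every mouse received tamoxifen by intraperitoneal injection, at 75 mg/kg daily for 5 days, with injections at an age of 28 days. No mouse in either group was fasted. The WT livers were 17 months old, while adenomas 1, 3 and 4 were taken at 17 months, adenoma 2 at 14 and adenoma 5 at 15. The labels give adenomas 1 to 4 as female and adenoma 5 as male, and WT livers 2 and 3 as female and 1, 4 and 5 as male. They name neither the animal behind each library nor liver tissue beside the adenomas, so the p-values speak to variation among these libraries, part of which may be technical. Tumor growth, loss of Mlx, the Cre allele, strain, depth and the counting of reads went with the same split of the libraries. They cannot be told apart. A second set, kept in its own table, held livers of 4 MlxKO and 6 WT mice at 5 months, fasted for 14 h, with the knockout made by the tm1(cre/ERT2)Tyj allele of B6.129-Gt(ROSA)26Sor mice together with Mlxloxp/loxp.

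Mlx is the shared dimerization partner of the glucose-sensing transcription factors ChREBP, encoded by Mlxipl, and MondoA, encoded by Mlxip. These heterodimers bind carbohydrate response elements, which are paired E-boxes near genes of glycolysis, fructose breakdown and fat synthesis, and in liver ChREBP couples carbohydrate intake to lipogenesis. Mlx also pairs with members of the Mxd family, which share their E-box sites with Myc and Max.

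Poly(A) RNA was sequenced, with 34590164 to 37087490 counts per adenoma library and 16036626 to 18690029 per WT library. Counts between 1 and 19 were even in 81.0 to 83.1% of cases in the adenomas and in 42.3 to 44.1% in WT, so the groups were counted differently, and each result was repeated with halved adenoma counts. Halving scales all genes of a library alike, so library scaling largely undoes it and it cannot show effects of the counting on single genes. Adenoma 5 went against its male label, with Xist at 887 CPM (counts scaled to library size with TMM factors) and no count at Ddx3y, Eif2s3y, Kdm5d or Uty. The label was kept in the sex term of the fit, and results are given with and without this library. The first principal component held 43.91% of the variance and separated the groups, from 39.2 to 83.9 in the adenomas and from -71.7 to -45.1 in WT. The third component, 11.51%, spread the adenomas from each other, with adenoma 2 at 55.2 and adenoma 4 at -76.4. Hepatocyte markers were present in both groups, and 2 of 15 were called lower, Alb and Asgr1 (median -0.31 on the log2 scale), beside 7.68% lower among all genes. Without adenoma 5 the markers called lower numbered 1 (2 with no sex term). Their summed level was 46874 to 101310.0 CPM in the adenomas and 132080.0 to 182280.0 in WT, a gap carried by Alb: without it the sums were 68011, 45016, 94861, 97295 and 94021 CPM in adenomas 1 to 5 and 64375, 70795, 74276, 78167 and 75954 in WT livers 1 to 5, with adenomas 3, 4 and 5 above every WT liver. Adenoma 2 was below every WT liver. Trf, transferrin, is part of these sums and took 2.25 to 4.62% of all counts in adenomas and 1.4 to 1.99% in WT. Its part in the higher sums was not tested, as no sum was taken without it. The higher sums of adenomas 3, 4 and 5 are therefore not read as a rise of the other markers. The nuclear receptor Hnf4a was at 416 to 634 CPM in the adenomas against 603 to 636 in old WT. In such bulk samples fewer cells of a type and less RNA per cell cannot be told apart.

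Of 13954 genes tested, 2290 differed between adenomas and old WT at an adjusted p under 0.05 (edgeR's quasi-likelihood test with Benjamini-Hochberg adjustment), which is 16.4%. The 1219 higher genes were 8.74% of those tested and the 1071 lower genes 7.68%, and the median over all genes was 0.04 on the log2 scale. Among the called genes 1772 had groups that did not overlap in CPM. Such separation was also found among the genes as a whole at 8.97% higher and 9.15% lower. Large changes were mostly rises: 440 genes rose and 117 fell by 4-fold or more, and 85 rose and 29 fell by 16-fold or more. Without adenoma 5 the count was 728, 351 higher and 377 lower, of which 666 were among the 2290. All remaining adenomas are then labelled female, and a sex term leaves the contrast to WT livers 2 and 3. With no sex term the same 9 libraries gave 2823 calls, 1993 of them among the 2290, so for each list with calls the count without adenoma 5 is given below for both fits, in the direction that held more of the calls. In that last fit 2 of the 2290 genes, C6 and Slc22a29, had the other sign without being called, and in no other alternative run did a called gene turn. Leaving out WT liver 2 or 3, the female WT livers, gave 704 and 806 calls.

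**Figure D1:**
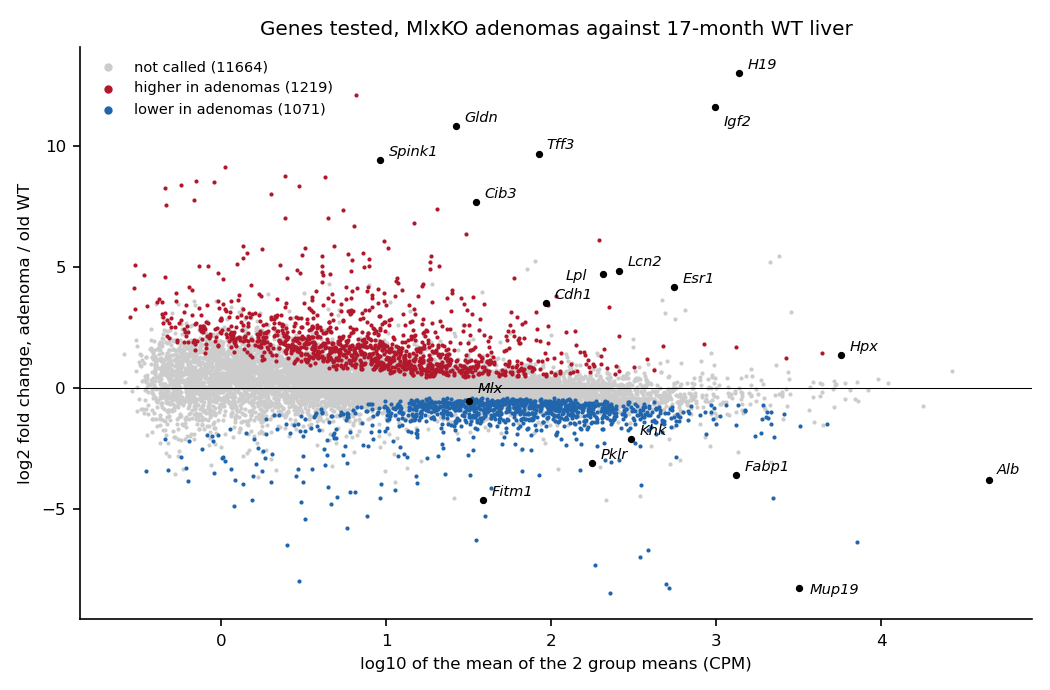
Each point is a gene, placed by the log10 of its mean CPM over the group means and by its log2 fold change, with 1219 genes called higher in red, 1071 called lower in blue, the rest in grey and labelled genes in black. H19 and Igf2 stand at the top right, and Alb and the major urinary protein gene Mup19 at the bottom right.

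Mlx itself was lower in every adenoma than in every WT liver but narrowly missed the threshold across genes. It stood at 29.9, 19.9, 25.9, 28.5 and 22.5 CPM in adenomas 1 to 5, against 43.8, 31.8, 34.5, 39.9 and 43.5 CPM in WT livers 1 to 5. The adenoma mean was 65.4% of the WT mean (log2 fold change -0.55 ± 0.17, adjusted p = 0.0516), and an exact two-sided permutation test of the gene alone gave p = 0.00794, the smallest that 5 against 5 allows. Mlx passed with no sex term (adjusted p = 0.0131), with DESeq2 (adjusted p = 0.0225) and, just, with RLE scaling in edgeR (adjusted p = 0.0499), and also without adenoma 1 or 4 (adjusted p = 0.0365 and 0.0402). Without adenoma 5 its log2 fold change was -0.33 (adjusted p = 0.282). The counts cover the whole gene and include cells outside the reach of an albumin-driven Cre, and the sources used here do not name the deleted exons, so this value checks the genotype only in part.

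Its partners did not pass the test. Mlxipl (ChREBP) was at 159.8 to 461 CPM in the adenomas against 169.7 to 616 in old WT (log2 fold change -0.47 ± 0.45, adjusted p = 0.504), and Mlxip (MondoA) at 8.88 to 17.3 CPM in the adenomas against 7.5 to 11.5 in old WT (log2 fold change 0.73 ± 0.25, adjusted p = 0.0651). Myc, the oncogenic transcription factor that shares E-boxes with this network, was at 22.1, 12.3, 10.3, 11.1 and 7.91 CPM in adenomas 1 to 5, against 10.6, 3.47, 3.66, 2.41 and 1.98 CPM in WT livers 1 to 5, with overlapping groups (log2 fold change 1.52 ± 0.56, adjusted p = 0.0871). Of 12 tested genes of the Myc, Max and Mlx network, Mlx and these partners included, 1 rose and 1 fell. These counts are close to the shares among all genes, 8.74% higher and 7.68% lower. The riser was Mxd1, a Max partner that opposes Myc, from a WT mean of 6.62 to 12.2 CPM (log2 fold change 0.91 ± 0.23, adjusted p = 0.0225), and the faller was the related Mxd4 (log2 fold change -0.68 ± 0.21, adjusted p = 0.0472). Neither passed without adenoma 5 (adjusted p = 0.189 and 0.236), and the list then had 0 higher and 0 lower without adenoma 5 (2 and 1 with no sex term).

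Part of the known targets of the Mlx heterodimers were lower in the adenomas. Of 32 measured ChREBP and MondoA targets and genes of fructolysis, 10 fell, 0 rose and 22 did not pass, with a median log2 fold change of -0.73. The falls numbered 7 without adenoma 5 (14 with no sex term). Among all genes 7.68% were called lower. RefSeq promoter windows (GRCm38.p6, 250 bases before to 50 after a gene's start) were at hand for 7 of the 10 genes that fell. Among these, windows of Pklr and Khk held a motif searched for, and both are shown because they held a match. These genes also fell with the smallest adjusted p of the list. The Pklr window (chr3:89136373-89136672, plus strand) has in capitals the only match among the list's genes to CACGNG, 5 bases of any kind and CNCGTG, a pair of E-box-like elements, and the Khk window (chr5:30921309-30921608, plus strand) has in capitals the E-box CACGTG.
Pklr: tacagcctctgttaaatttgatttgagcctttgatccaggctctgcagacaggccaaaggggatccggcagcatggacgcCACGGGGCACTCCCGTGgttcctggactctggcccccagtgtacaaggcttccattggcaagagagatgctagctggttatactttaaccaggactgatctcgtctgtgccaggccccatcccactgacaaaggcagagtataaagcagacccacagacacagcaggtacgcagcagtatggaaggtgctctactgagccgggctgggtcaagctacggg
Khk: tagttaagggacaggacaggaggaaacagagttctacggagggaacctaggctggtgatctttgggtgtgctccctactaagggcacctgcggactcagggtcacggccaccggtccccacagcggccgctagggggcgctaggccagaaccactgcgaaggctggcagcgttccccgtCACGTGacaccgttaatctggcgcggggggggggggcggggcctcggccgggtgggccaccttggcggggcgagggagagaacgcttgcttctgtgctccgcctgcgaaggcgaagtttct
The Pklr match starts 170 bases before the gene's start and the Khk match 71 bases before. Both motifs read the same on either strand, and the paired motif can contain the E-box. The E-box was present in 7.15% of all 32851 promoter windows and the paired motif in 0.046%, 15 windows, while 3 of 26 list genes with a window held the E-box (Khk, Arrdc4 and Fgf21) and 1 the paired motif. The paired motif was chosen after the values were seen. Gpd1 and Klf10 had no entry.

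Pklr, liver pyruvate kinase, was at 32.2, 16.6, 38.5, 23.8 and 33.6 CPM in adenomas 1 to 5, against 338, 215, 193, 544 and 345 CPM in WT livers 1 to 5. Every adenoma was below every WT liver (log2 fold change -3.13 ± 0.30, adjusted p = 0.000363). Khk, ketohexokinase, which takes fructose into metabolism, was at 70.4, 110.1, 109, 90.8 and 119 CPM in adenomas 1 to 5, against 615, 439, 346, 690.0 and 470.1 CPM in WT livers 1 to 5. The groups again did not overlap (log2 fold change -2.14 ± 0.21, adjusted p = 0.000417). Slc2a2, the hepatic glucose transporter GLUT2, was at 28.4, 60.9, 27.8, 47.1 and 94.5 CPM in adenomas 1 to 5, against 299, 228, 309, 352 and 442 CPM in WT livers 1 to 5 (log2 fold change -2.43 ± 0.29, adjusted p = 0.000951). The NADPH-producing malic enzyme gene Me1 was at 43.6, 55.4, 93.7, 44.4 and 44.2 CPM in adenomas 1 to 5, against 461, 187, 202, 524 and 441 CPM in WT livers 1 to 5 (log2 fold change -2.27 ± 0.38, adjusted p = 0.00425). Other called members were Mid1ip1, which activates acetyl-CoA carboxylase (-1.73 ± 0.23), the triose kinase Tkfc (-1.49 ± 0.26), the lipogenic regulator Thrsp (-3.01 ± 0.84), the glycerol-phosphate dehydrogenase Gpd1 (-1.42 ± 0.30) and the repressor Klf10 (-1.59 ± 0.42). The fatty acid synthase gene did not pass in the main fit. The list's falls numbered 18 with no sex term and 16 with DESeq2. Fasn, fatty acid synthase, was at 282, 88, 671, 660.2 and 549 CPM in adenomas 1 to 5, against 1794, 717, 916, 2962 and 1240.5 CPM in WT livers 1 to 5 (adjusted p = 0.147). All 5 adenomas were below all WT livers, which themselves spanned a wide range. Txnip, a glucose-induced regulator of glucose uptake and a classic MondoA target, was at 24.6 to 118 CPM in the adenomas against 38.3 to 112 in old WT and did not pass (log2 fold change -0.56 ± 0.47, adjusted p = 0.434).

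Genes of mitochondrial energy metabolism fell widely. Of 33 genes of fatty acid oxidation and ketogenesis 22 fell and 0 rose, with a median of -1.16 and every member below 0. Of 31 genes of the TCA cycle 18 fell and 1 rose (median -0.75). Of 76 nuclear-encoded respiratory chain subunits 51 fell and 0 rose (median -0.72). These shares stand beside 7.68% lower among all genes. Without adenoma 5 the falls were 11, 11 and 16, with no sex term 22, 18 and 51, and the medians with the sex term were -1.0, -0.75 and -0.67.

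Fabp1, the liver fatty acid binding protein, was at 172, 286, 167, 164 and 189 CPM in adenomas 1 to 5, against 2432, 2419, 2248, 4180.3 and 952 CPM in WT livers 1 to 5 (log2 fold change -3.63 ± 0.41, adjusted p = 0.00074). The adenomas lay close together and far below WT. The carnitine-acylcarnitine carrier Slc25a20, which brings fatty acids into mitochondria, was at 44, 61.9, 41.3, 35.6 and 40.6 CPM in adenomas 1 to 5, against 145, 132, 115, 161 and 155 CPM in WT livers 1 to 5 (log2 fold change -1.6 ± 0.19, adjusted p = 0.00109). Etfdh, which passes electrons from fatty acid oxidation to ubiquinone, fell (log2 fold change -1.49 ± 0.21, adjusted p = 0.00236), as did the dienoyl-CoA reductase Decr1 (log2 fold change -1.70 ± 0.25, adjusted p = 0.00288).

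In the TCA cycle, citrate synthase (Cs) was at 60.6, 70.1, 74.1, 78.9 and 66.2 CPM in adenomas 1 to 5, against 185, 155, 166, 195 and 167 CPM in WT livers 1 to 5 (log2 fold change -1.28 ± 0.15, adjusted p = 0.000884). Sdha, the flavoprotein of succinate dehydrogenase, was at 212, 198, 236, 254 and 271 CPM in adenomas 1 to 5, against 493, 590.3, 639, 701 and 587 CPM in WT livers 1 to 5 (log2 fold change -1.33 ± 0.18, adjusted p = 0.00177). Both genes separated the groups completely and varied little among the adenomas. Pdk1, a kinase that turns pyruvate dehydrogenase off, fell from a WT mean of 129.6 to 21.3 CPM (log2 fold change -2.59 ± 0.26, adjusted p = 0.000412), and Pdp1, the phosphatase that turns it on, was the 1 gene of the list that rose (log2 fold change 1.98 ± 0.48, adjusted p = 0.0209), though not without adenoma 5 (adjusted p = 0.205).

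The fall ran through every complex of the respiratory chain. Complex I had 24 of 36 subunits lower, complex II 3 of 4, complex III 7 of 9, complex IV 7 of 11 and the ATP synthase 9 of 15, with medians from -0.85 to -0.61, and none rose. Cox7a2l, a factor of supercomplex assembly, was the single member above 0. Ndufb3 of complex I was at 10.9 to 15.2 CPM in the adenomas against 25.4 to 48.8 in old WT (log2 fold change -1.59 ± 0.20, adjusted p = 0.00127), and Uqcrb of complex III at 27.5 to 45.4 CPM in the adenomas against 88.6 to 135 in old WT (log2 fold change -1.53 ± 0.19, adjusted p = 0.00119). Of 78 mitochondrial ribosomal proteins 24 fell and 0 rose (median -0.46), 5 without adenoma 5 (27 with no sex term), among them Mrps5 (-1.39 ± 0.21) and Mrpl50 (-0.99 ± 0.15). Of 79 cytoplasmic ribosomal proteins 2 rose (Rps15a, 0.62 ± 0.18, and Rps27a, 0.57 ± 0.17) and 1 fell (Rpl35a, -0.70 ± 0.20), around a median of -0.03. The median of 67 ribosome biogenesis factors was 0.02, with 2 rises (Nop58, 0.70 ± 0.21, and Rrp1b, 0.84 ± 0.26) and 0 falls. The cytoplasmic ribosomal proteins had 0 higher and 0 lower without adenoma 5 (4 and 1 with no sex term), and the biogenesis factors 0 higher and 0 lower without adenoma 5 (3 and 2 with no sex term). The ribosomal protein median was 0.07 without adenoma 5, so no direction is given for the family. Among all genes 8.74% were called higher and 7.68% lower.

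**Figure D2:**
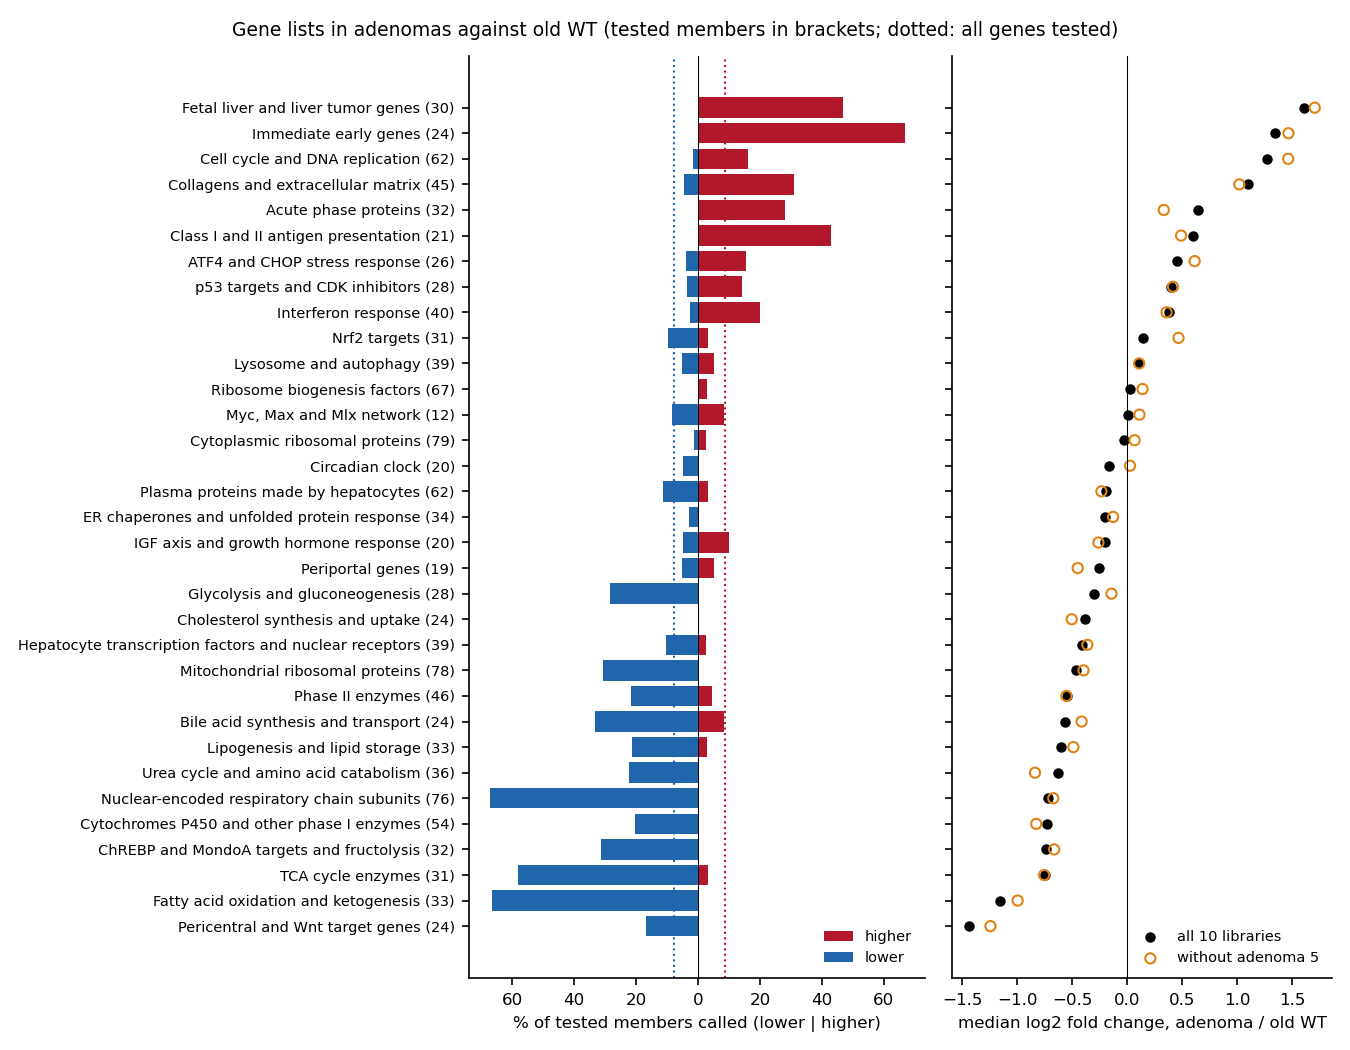
Gene lists ordered by their median log2 fold change. The left panel gives the percentage of tested members called lower (blue) or higher (red), with dotted lines at 7.68% and 8.74% for all genes, and the right panel gives the list's median with all libraries (filled) and without adenoma 5 (open). Lists of mitochondrial and hepatocyte metabolism lie at the bottom, and lists of fetal, immediate early, cell cycle and matrix genes at the top.

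Glycolysis genes fell in part, and calls here stand beside 7.68% lower and 8.74% higher among all genes. Of 28 measured genes of glycolysis and gluconeogenesis 8 fell and 0 rose (median -0.30), and 3 without adenoma 5 (9 with no sex term) fell. Besides Pklr these included the glucose-6-phosphate carrier Slc37a4 (log2 fold change -1.22 ± 0.20, adjusted p = 0.00418) and pyruvate carboxylase Pcx (log2 fold change -1.06 ± 0.22, adjusted p = 0.0117). Of 33 genes of lipogenesis and lipid storage 7 fell and 1 rose (median -0.60), and 4 without adenoma 5 (11 with no sex term) fell. Fitm1, a protein of lipid droplet formation, was at 0.137, 2.98, 0.583, 0.424 and 1.36 CPM in adenomas 1 to 5, against 124, 19, 11.8, 139.8 and 89.5 CPM in WT livers 1 to 5 (log2 fold change -4.66 ± 0.82, adjusted p = 0.00535). G0s2, an inhibitor of triglyceride lipase, was at 13.5 to 33.2 CPM in the adenomas against 79.8 to 132 in old WT (log2 fold change -2.32 ± 0.28, adjusted p = 0.0011). The riser was Scd2, the fatty acid desaturase of fetal liver and brain, at 368, 44.7, 138, 99.1 and 329 CPM in adenomas 1 to 5, against 9.32, 13.4, 12.6, 42.3 and 9.03 CPM in WT livers 1 to 5 (log2 fold change 3.79 ± 0.65, adjusted p = 0.00495). Adenomas 1 and 5 were the highest, and the call did not hold without adenoma 5 (adjusted p = 0.0572). Of 24 genes of cholesterol synthesis and uptake 0 passed in edgeR, with 3 at an unadjusted p under 0.05, and DESeq2 called 0 higher and 2 lower.

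Differentiated liver functions were lower in part, beside 7.68% of all genes called lower and 8.74% higher. Of 54 cytochromes P450 and other phase I enzymes 11 fell and 0 rose (median -0.73), of 46 phase II enzymes 10 fell and 2 rose (median -0.55), and of 36 genes of the urea cycle and amino acid catabolism 8 fell (median -0.63). Without adenoma 5 the falls were 3, 8 and 1, with no sex term 13, 11 and 9. The rises were then 2, 1 and 0, with no sex term 0, 3 and 0. Cyp1a2, an enzyme of drug oxidation, fell from a WT mean of 561 to 125 CPM (log2 fold change -2.42 ± 0.47, adjusted p = 0.00798), and Otc, ornithine transcarbamylase of the urea cycle, fell (log2 fold change -0.78 ± 0.21, adjusted p = 0.0302). Cps1, the first enzyme of that cycle, did not pass (-0.40 ± 0.31, adjusted p = 0.408). Among conjugating enzymes the sulfotransferase Sult2a8 fell (log2 fold change -4.02 ± 0.69, adjusted p = 0.00492), while the glutathione transferase Gsta1 rose, at 279.8, 136, 59.2, 34.8 and 30 CPM in adenomas 1 to 5, against 23.2, 2.26, 1.89, 11.5 and 14.8 CPM in WT livers 1 to 5 (log2 fold change 4.56 ± 1.31, adjusted p = 0.0384). Gsta1 was called in the absence of adenoma 5 as well (adjusted p = 0.0129).

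In bile acid metabolism 8 of 24 genes fell and 2 rose, beside 7.68% lower and 8.74% higher among all genes. Cyp8b1, the sterol 12-alpha-hydroxylase that sets the ratio of cholic acid to other bile acids, was at 14.9, 18.2, 73.6, 35.9 and 54.8 CPM in adenomas 1 to 5, against 490.4, 366, 202, 513 and 342 CPM in WT livers 1 to 5 (log2 fold change -3.01 ± 0.46, adjusted p = 0.00299). Baat, which conjugates bile acids, fell (log2 fold change -1.71 ± 0.20, adjusted p = 0.000892), and so did the uptake transporter Slc10a1, known as NTCP (log2 fold change -1.85 ± 0.40, adjusted p = 0.0133). The risers were exporters: Abcg5, which moves sterols into bile, at 101 to 307 CPM in the adenomas against 62.6 to 76.5 in old WT (log2 fold change 1.76 ± 0.27, adjusted p = 0.00329), and Slc51b, the beta subunit of the basolateral bile acid exporter (log2 fold change 2.13 ± 0.44, adjusted p = 0.0104). The list had 1 higher and 4 lower without adenoma 5 (2 and 8 with no sex term).

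Genes of the pericentral zone, which depend on Wnt signalling around the central vein, had the lowest median of the lists, -1.43, with 4 of 24 called lower and 1 without adenoma 5 (2 with no sex term). Axin2, a direct Wnt target, fell (log2 fold change -1.82 ± 0.51, adjusted p = 0.036), as did the ornithine aminotransferase Oat (log2 fold change -2.87 ± 0.79, adjusted p = 0.0326) and the transcription factor Tbx3 (log2 fold change -2.49 ± 0.61, adjusted p = 0.0215). Glul, glutamine synthetase and a common marker of beta-catenin activity in liver tumors, was at 38.8, 543, 239.7, 63.3 and 163 CPM in adenomas 1 to 5, against 538, 749.6, 1022, 918 and 923 CPM in WT livers 1 to 5 and missed the threshold (log2 fold change -2.10 ± 0.66, adjusted p = 0.0532). Cyp2e1 was at 44.4, 6532, 782, 5451 and 698 CPM in adenomas 1 to 5, against 4840.1, 5251, 6007, 6357 and 8136 CPM in WT livers 1 to 5. Adenomas 2 and 4 lay within the WT range, and adenoma 1 was far below (adjusted p = 0.379). Of 19 periportal genes 1 rose and 1 fell (median -0.25), beside 8.74% higher and 7.68% lower among all genes. The periportal list had 1 higher and 0 lower without adenoma 5 (1 and 0 with no sex term). The faller was Pigr, which carries immunoglobulin A into bile (log2 fold change -0.72 ± 0.22, adjusted p = 0.0487). The riser was Cdh1, the epithelial adhesion protein E-cadherin, at 165, 92.1, 243, 116 and 240.0 CPM in adenomas 1 to 5, against 12, 15.3, 35.6, 4.02 and 6.61 CPM in WT livers 1 to 5 (log2 fold change 3.51 ± 0.53, adjusted p = 0.00298).

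Among 39 hepatocyte transcription factors and nuclear receptors 1 rose and 4 fell, beside 8.74% higher and 7.68% lower among all genes, and the list had 3 higher and 3 lower without adenoma 5 (2 and 4 with no sex term). The riser was Esr1, estrogen receptor alpha, at 1914, 541, 782, 973 and 1096 CPM in adenomas 1 to 5, against 34, 86.3, 83.8, 30.6 and 35 CPM in WT livers 1 to 5. Its mean rose from 53.9 to 1061 CPM (log2 fold change 4.16 ± 0.41, adjusted p = 0.000388). The lowest adenoma was several times above the highest WT liver, and within WT the female livers 2 and 3 were the highest. The call held without adenoma 5 (adjusted p = 0.00862). It also held with halved adenoma counts (adjusted p = 0.000359), a change that library scaling largely undoes. Among the genes that fell were the hepatocyte factor Onecut1 (log2 fold change -2.38 ± 0.41, adjusted p = 0.00491), Gata4 (log2 fold change -0.94 ± 0.23, adjusted p = 0.0209) and the retinoid receptor Rxra (log2 fold change -0.61 ± 0.16, adjusted p = 0.0309).

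Albumin, the main plasma protein made by hepatocytes, was far lower in every adenoma. Alb was at 7529, 1859, 6265, 3792 and 7285 CPM in adenomas 1 to 5, against 67709, 68140.0, 76986, 101455 and 106330.0 CPM in WT livers 1 to 5. It took 5.89 to 8.59% of all counts in WT livers and 0.255 to 0.903% in adenomas (log2 fold change -3.81 ± 0.44, adjusted p = 0.000896), and the call held without adenoma 5 (adjusted p = 0.00819). The albumin promoter also drives the Cre of the adenoma mice, and the part of that allele was not tested. Of 62 plasma proteins tested, 7 fell and 2 rose, with a median of -0.19, beside 7.68% lower and 8.74% higher among all genes. The plasma protein list had 3 higher and 5 lower without adenoma 5 (2 and 11 with no sex term). Trf, transferrin, was at 29506, 16392, 42339, 39892 and 37197 CPM in adenomas 1 to 5, against 16129.9, 21355, 21946, 21119.6 and 21563 CPM in WT livers 1 to 5 (log2 fold change 0.70 ± 0.33, adjusted p = 0.168). It did not pass, and 4 of 5 adenomas were above every WT liver. Apoa2, a protein of high density lipoprotein, fell (log2 fold change -1.49 ± 0.27, adjusted p = 0.00593), as did the lectin Mbl1 (log2 fold change -1.26 ± 0.19, adjusted p = 0.00314). The anticoagulant Pros1 rose (log2 fold change 1.19 ± 0.24, adjusted p = 0.0105).

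The major urinary proteins, secreted lipocalins under growth hormone and sex control, made up 9 of the 12 largest falls among genes that met the naming rule (at least 10 CPM in the higher group, no overlap, and called also with halved adenoma counts and without adenoma 5). Their genes are near-identical copies on chromosome 4, so reads can be split between them and each single value is uncertain. Of 18 tested Mup genes 10 fell, between -8.50 and -4.58 on the log2 scale, and the same number without adenoma 5. Among all genes 7.68% were called lower. Mup12 fell most, from a WT mean of 452 to 0.172 CPM (log2 fold change -8.50 ± 1.31, adjusted p = 0.00323), and Mup19 from 6304 to 21.3 CPM (log2 fold change -8.28 ± 1.25, adjusted p = 0.00298). Their summed level over 21 genes was 4422, 2124, 157, 210.4 and 2512 CPM in adenomas 1 to 5, against 53032, 7869, 8562, 22511 and 30688 CPM in WT livers 1 to 5. The sums did not overlap. Mup20, a male pheromone, was not among the falls, at 4006, 2007, 48.4, 187 and 2357 CPM in adenomas 1 to 5, against 6219, 13.7, 14.8, 3499 and 5569 CPM in WT livers 1 to 5 (adjusted p = 0.181). The family was summed after its members' values were seen.

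The other large falls were those of Extl1, a glycosyltransferase of heparan sulfate (log2 fold change -5.83 ± 0.84, adjusted p = 0.00236), Dct, dopachrome tautomerase (log2 fold change -5.32 ± 0.94, adjusted p = 0.00537), and Fitm1. Among the called genes with the highest levels were also the peroxisomal catalase Cat (log2 fold change -1.09 ± 0.22, adjusted p = 0.0105) and the carbonic anhydrase Car3 (log2 fold change -2.05 ± 0.43, adjusted p = 0.011), which fell. Without adenoma 5 these 2 missed the threshold (adjusted p = 0.0659 and 0.0578).

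Part of the acute phase genes rose, beside 8.74% called higher among all genes. Of 32 tested 9 rose and 0 fell (median 0.64), and the rises numbered 6 without adenoma 5 (13 with no sex term). Lcn2, lipocalin 2, which binds bacterial siderophores, was at 996, 184, 801, 408 and 148 CPM in adenomas 1 to 5, against 9.82, 19.5, 15.5, 6.16 and 5.14 CPM in WT livers 1 to 5 (log2 fold change 4.85 ± 0.51, adjusted p = 0.000538). Il1rn, the interleukin-1 receptor antagonist, was at 14.1 to 45.5 CPM in the adenomas against 2.21 to 3.76 in old WT (log2 fold change 3.07 ± 0.32, adjusted p = 0.000487). The hemoglobin and heme scavengers Hp (log2 fold change 1.43 ± 0.34, adjusted p = 0.0184) and Hpx (log2 fold change 1.36 ± 0.33, adjusted p = 0.0212) were among the called genes with the highest levels. Hpx was at 11427, 4209, 9910.4, 8030.4 and 7262 CPM in adenomas 1 to 5, against 3399, 2447, 3345, 3735 and 3563 CPM in WT livers 1 to 5. Neither of the latter pair passed without adenoma 5 (adjusted p = 0.0512 and 0.0605).

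The 12 largest rises under the same rule were mostly in genes near 0 CPM in WT liver. H19, the imprinted long noncoding RNA of fetal liver, was at 6157, 77.3, 781, 116 and 6679 CPM in adenomas 1 to 5, against 0.143, 0.174, 0.532, 0.938 and 0.22 CPM in WT livers 1 to 5 (log2 fold change 13.03 ± 1.67, adjusted p = 0.00132). All adenomas were above all WT livers, and adenomas 1 and 5 were well above the other 3. Gldn, gliomedin, known from peripheral nerve, was at 36.1, 9.63, 40.8, 72.5 and 106 CPM in adenomas 1 to 5, against 0, 0, 0, 0.201 and 0 CPM in WT livers 1 to 5. WT held 3 counts over 5 libraries, which puts the adenoma mean at 1360 times the WT level (95% counting interval 464 to 6580, adjusted p = 0.000136). Sprr1a, a squamous cornified envelope protein, was at 20.3, 1.33, 4.32, 11.6 and 28.2 CPM in adenomas 1 to 5 with no count in WT. Against a floor of 3 counts over the group it was at least 336-fold higher (adjusted p = 0.00492). Intervals and floors cover counting error only.

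Tff3, a trefoil peptide of mucosa, was at 414, 1.89, 35.7, 78.3 and 307 CPM in adenomas 1 to 5, against 0.215, 0.0579, 0, 1.27 and 0.367 CPM in WT livers 1 to 5 (adjusted p = 0.00342). Spink1, a trypsin inhibitor raised in liver cancer, was at 41, 2.61, 2.33, 5.3 and 40.8 CPM in adenomas 1 to 5, against 0, 0, 0, 0.134 and 0.0734 CPM in WT livers 1 to 5, with 3 WT counts in all (471 times the WT level, 95% counting interval 161 to 2280, adjusted p = 0.00203). Both were highest in adenomas 1 and 5. The more even rises were those of Cib3, a calcium and integrin binding protein, at 42, 35.2, 114, 72.4 and 86.8 CPM in adenomas 1 to 5, against 0.645, 0.289, 0.295, 0.603 and 0.0734 CPM in WT livers 1 to 5 (log2 fold change 7.69 ± 0.51, adjusted p = 7.54e-05), and Smpd3, a neutral sphingomyelinase, at 50.4, 28.2, 53.4, 34.8 and 31.6 CPM in adenomas 1 to 5, against 2.37, 0.405, 0.65, 3.35 and 3.82 CPM in WT livers 1 to 5 (log2 fold change 5.04 ± 0.57, adjusted p = 0.00074). The rest of the 12 largest were Ubd, a ubiquitin-like modifier induced by cytokines (5.78 ± 0.65), the serine protease Tmprss4 (6.81 ± 0.94), the fatty acid elongase Elovl7 (5.29 ± 0.66), the anion exchanger Slc4a9 (5.22 ± 0.47) and Lrtm2 (7.40 ± 0.92). Lpl, lipoprotein lipase, which adult hepatocytes make little of, was at 242, 211, 379, 234 and 915 CPM in adenomas 1 to 5, against 11.5, 12.5, 17.4, 29.7 and 14.9 CPM in WT livers 1 to 5 (log2 fold change 4.71 ± 0.40, adjusted p = 0.000184). Lpl stands on the list of 10 adipocyte markers, of which 3 passed the filter, all above 0 (median 1.72, and 2.80 without adenoma 5). Fabp4, the fatty acid binding protein of fat cells, was at 4.15 to 80.1 CPM in the adenomas against 3.65 to 12.1 in old WT and did not pass (log2 fold change 1.72 ± 1.07, adjusted p = 0.288). The summed level of the list, most of it Pck1, which hepatocytes also make, was 1249 to 2948 CPM in the adenomas and 941 to 1639.9 in WT, while the defining Adipoq, Lep and Plin1 had no count in any adenoma. The part of adipocytes in the Lpl level was not tested.

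Of 38 listed genes of fetal liver and liver tumors 30 passed the filter. Of these 14 rose and 0 fell (median 1.6), with 7 without adenoma 5 (15 with no sex term) higher. Golm1, a Golgi protein raised in liver cancer, was at 16.7 to 50.5 CPM in the adenomas against 3.01 to 5.58 in old WT (log2 fold change 2.62 ± 0.34, adjusted p = 0.00146), and Sox9, a factor of progenitor and bile duct cells, rose too (log2 fold change 1.65 ± 0.42, adjusted p = 0.0245). Afp, alpha-fetoprotein, was at 26.7, 0.442, 9.48, 4.96 and 0.291 CPM in adenomas 1 to 5, against 0.143, 0.347, 0.355, 1.34 and 0.514 CPM in WT livers 1 to 5 and did not pass (adjusted p = 0.245). Igf2, the fetal growth factor next to H19 in the same imprinted domain on chromosome 7, was at 6151, 2.09, 29.4, 4.16 and 3660.2 CPM in adenomas 1 to 5, against 0.573, 0.752, 0.532, 0.737 and 1.1 CPM in WT livers 1 to 5. It was called (log2 fold change 11.61 ± 2.45, adjusted p = 0.012), but not without adenoma 5 (adjusted p = 0.12), and the level rested on adenomas 1 and 5. Among 20 genes of the IGF axis Igfbp1, a liver-secreted IGF binding protein, rose at nearly the same level in every adenoma, 166, 173, 159.6, 157 and 166 CPM in adenomas 1 to 5, against 18.6, 57.2, 31.9, 13.8 and 8.52 CPM in WT livers 1 to 5 (log2 fold change 2.53 ± 0.34, adjusted p = 0.00169). Igfbp5 fell (log2 fold change -2.83 ± 0.59, adjusted p = 0.0117). Of the list 2 rose and 1 fell, beside 8.74% higher and 7.68% lower among all genes. Without adenoma 5 it had 1 higher and 0 lower (2 and 1 with no sex term).

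**Figure D3:**
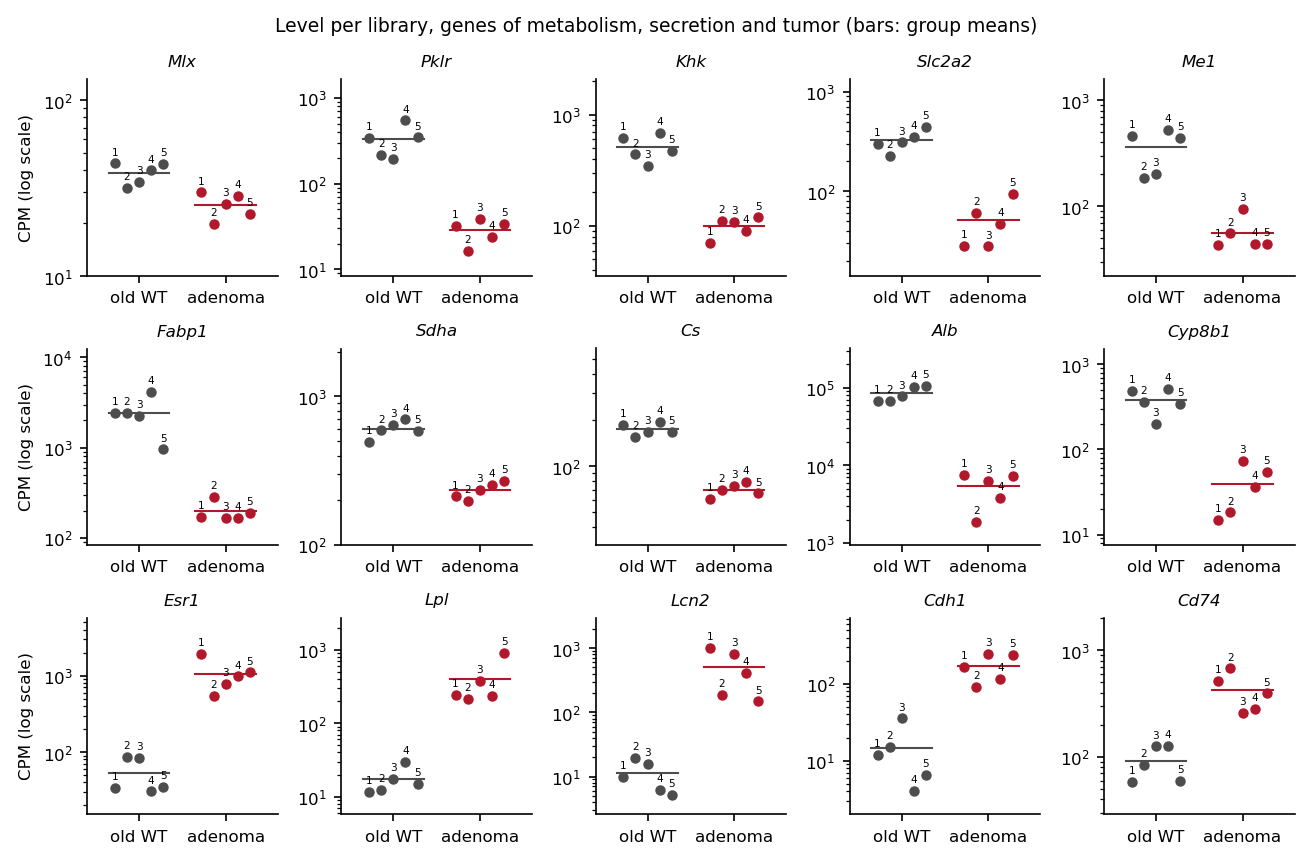
Level of 15 genes in each library, on a log CPM axis, with WT livers 1 to 5 in grey and adenomas 1 to 5 in red (numbered points) and a bar at each group mean. The groups are apart in every panel, down for Mlx and the genes of metabolism and secretion and up for Esr1, Lpl, Lcn2, Cdh1 and Cd74.

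The adenomas differed from each other at other genes. Slc7a11, the cystine transporter of glutathione synthesis, was at 175, 1.61, 0.212, 0.318 and 0.874 CPM in adenomas 1 to 5, against 0, 0, 0.118, 0 and 0 CPM in WT livers 1 to 5. The other 4 adenomas held at most 1.61 CPM, and the gene did not pass the filter for the test. Psat1, of serine synthesis, was also highest there, at 9.93, 1.97, 1.19, 0.901 and 1.53 CPM in adenomas 1 to 5, against 0.287, 0.116, 0.65, 0.201 and 0.22 CPM in WT livers 1 to 5 (log2 fold change 3.0 ± 0.85, adjusted p = 0.036). Col5a2, a fibrillar collagen, was at 23, 79.9, 64.9, 1686 and 69.2 CPM in adenomas 1 to 5, against 2.44, 4.4, 4.2, 1.94 and 2.94 CPM in WT livers 1 to 5 (log2 fold change 6.12 ± 1.35, adjusted p = 0.0145). Adenoma 4 alone stood far above the others. The Kupffer cell marker Clec4f was at 5.34, 326, 114, 13.1 and 113 CPM in adenomas 1 to 5, against 45.8, 100.05, 122, 91.7 and 84.5 CPM in WT livers 1 to 5, low in adenomas 1 and 4.

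Cell cycle genes had a median of 1.27, with 10 of 62 called higher and 1 lower, and 2 without adenoma 5 (14 with no sex term) higher. Mki67, the proliferation marker Ki-67, was at 15.5, 16.8, 19.2, 2.2 and 12 CPM in adenomas 1 to 5, against 1.22, 2.78, 3.19, 1.67 and 3.6 CPM in WT livers 1 to 5 (log2 fold change 2.28 ± 0.55, adjusted p = 0.0197). Adenoma 4 lay within the WT range. Mcm6, of the replicative helicase, rose (log2 fold change 2.15 ± 0.50, adjusted p = 0.0169), as did Stmn1, a tubulin-binding protein of dividing cells (log2 fold change 1.52 ± 0.34, adjusted p = 0.0152), and the phosphatase Cdc25a (log2 fold change 1.72 ± 0.44, adjusted p = 0.0246). E2f8, an atypical E2F repressor, fell (log2 fold change -1.44 ± 0.40, adjusted p = 0.034). Of 28 p53 targets and CDK inhibitors 4 rose and 1 fell, beside 8.74% higher and 7.68% lower among all genes. This list had 2 higher and 0 lower without adenoma 5 (4 and 1 with no sex term). The rises were led by the antiproliferative Btg2, at 29.4 to 73.7 CPM in the adenomas against 4.85 to 13.3 in old WT (log2 fold change 2.34 ± 0.33, adjusted p = 0.00212). The death receptor Tnfrsf10b (3.50 ± 0.78), the BH3-only protein gene Pmaip1 (2.65 ± 0.59) and the kinase Plk2 (1.15 ± 0.29) rose, and the desmosomal Perp fell (-0.71 ± 0.21). Cdkn1a, the p53-induced p21, was at 6.73 to 46.9 CPM in the adenomas against 5.21 to 25.5 in old WT and did not pass (adjusted p = 0.162). Immediate early genes, which answer within minutes to signals and to tissue handling, had 16 of 24 higher and 0 lower (median 1.34), and 7 without adenoma 5 (15 with no sex term) higher. Fos was at 4.8 to 11 CPM in the adenomas against 0.335 to 0.945 in old WT (log2 fold change 3.13 ± 0.37, adjusted p = 0.000933) and Klf6 at 21.2 to 59.2 CPM in the adenomas against 6.95 to 12.9 in old WT (log2 fold change 1.89 ± 0.29, adjusted p = 0.00309). How fast each tissue was frozen is unknown here, and the part of handling in these rises was not tested.

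In stress pathways calls are set beside 8.74% higher and 7.68% lower among all genes. Of 26 genes of the ATF4 and CHOP response 4 rose and 1 fell, with 1 higher and 1 lower without adenoma 5 (5 and 1 with no sex term). Atf3 (log2 fold change 3.21 ± 0.45, adjusted p = 0.00209), Ddit3, which encodes CHOP (log2 fold change 1.15 ± 0.28, adjusted p = 0.0202), the pseudokinase Trib3 (1.02 ± 0.31) and Psat1 rose, and Shmt2, of mitochondrial one-carbon metabolism, fell (-1.23 ± 0.20). Of 34 genes of ER chaperones and the unfolded protein response 1 fell (Sec61b of the translocon, -1.27 ± 0.24), and 0 without adenoma 5 (5 with no sex term). Of 31 Nrf2 targets 1 rose and 3 fell: Gsta1 rose, and thioredoxin Txn1 (-1.39 ± 0.22), the Nrf2 inhibitor Keap1 (-0.76 ± 0.16) and Me1 fell. This list had 1 higher and 2 lower without adenoma 5 (4 and 2 with no sex term). Of 39 genes of lysosome and autophagy the hydrolases Hexa (0.87 ± 0.25) and Asah1 (0.72 ± 0.21) rose and the autophagy genes Atg5 (-0.80 ± 0.22) and Atg7 fell. Atg7, needed for autophagosome formation, was at 27.2 to 35 CPM in the adenomas against 52.8 to 68.5 in old WT (log2 fold change -0.86 ± 0.14, adjusted p = 0.00364). The lysosome and autophagy list had 0 higher and 1 lower without adenoma 5 (7 and 2 with no sex term). Of 20 clock genes 1 fell, the output factor Hlf (-0.87 ± 0.22), with 1 higher and 0 lower without adenoma 5 (1 and 1 with no sex term).

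Part of the immune cell genes were higher in the adenomas, and calls stand beside 8.74% higher and 7.68% lower among all genes. The filter can keep a gene on its level in the adenomas alone, so counts over tested markers may favour rises. Of 12 monocyte and dendritic cell markers 10 were tested and 6 rose. The summed level of the list was 28.4 to 78.9 CPM in the adenomas and 9.69 to 16.2 in WT. Itgax (CD11c) was at 4.93 to 17.8 CPM in the adenomas against 0.932 to 1.48 in old WT (log2 fold change 3.18 ± 0.37, adjusted p = 0.000896), and the chemokine receptor Ccr2 at 4.85 to 15.9 CPM in the adenomas against 0.808 to 2.07 in old WT (log2 fold change 2.76 ± 0.41, adjusted p = 0.00282). Of 12 neutrophil markers only 6 passed the filter, and 5 of these rose. The summed level of all 12 was 8.24 to 117 CPM in the adenomas and 4.7 to 10.8 in WT. The calprotectin genes S100a8 and S100a9 were at 0.901 to 29.5 CPM in the adenomas against 0.661 to 2.26 in old WT and 2.47 to 31.6 CPM in the adenomas against 0.603 to 2.42 in old WT. Of 17 T and NK cell markers 12 were tested and 4 rose (sums 13.7 to 60.8 against 5.36 to 11.5 CPM). Among the risers were Cd8a (log2 fold change 2.24 ± 0.67, adjusted p = 0.0436) and Cd8b1 (log2 fold change 2.69 ± 0.79, adjusted p = 0.0404) of cytotoxic T cells. Trac and Trbc2 were listed at 0 in every library. B and plasma cell markers had 0 of 12 called in edgeR and 0 in DESeq2, with the immunoglobulin genes Ighm, Igkc and Iglc2 listed at 0 in every library. Without adenoma 5 the rises on these 3 lists were 2, 0 and 1, and with no sex term 6, 5 and 4. Of 21 genes of antigen presentation 9 rose and 0 fell, with 2 without adenoma 5 (9 with no sex term) higher, led by class II genes of antigen-presenting cells. Cd74, the class II invariant chain, was at 514, 675, 257, 281 and 393 CPM in adenomas 1 to 5, against 57.7, 84.7, 125, 126 and 59.5 CPM in WT livers 1 to 5 (log2 fold change 2.13 ± 0.36, adjusted p = 0.00477). Every adenoma was above every WT liver, and the class II gene H2-Eb1 separated the groups likewise (log2 fold change 2.07 ± 0.32, adjusted p = 0.00329). Of 40 interferon response genes 8 rose and 1 fell (Ifi35, -0.61 ± 0.13), with 0 without adenoma 5 (9 with no sex term) higher. Besides the antiviral Oasl2 (1.23 ± 0.29) and Ifit2 (1.46 ± 0.32) they included the chemokine Cxcl10 at 6.91 to 23.1 CPM in the adenomas against 1.33 to 4.55 in old WT (log2 fold change 2.24 ± 0.42, adjusted p = 0.00737).

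Kupffer cell and macrophage markers had 4 of 18 higher, beside 8.74% among all genes (sums 562 to 2761 against 408 to 975 CPM), and 1 without adenoma 5 (5 with no sex term). The called ones were general macrophage genes such as Cd68 (log2 fold change 1.65 ± 0.37, adjusted p = 0.0149) and Mpeg1 (log2 fold change 1.49 ± 0.27, adjusted p = 0.00575), while the Kupffer cell genes Clec4f, Vsig4 and Timd4 did not pass (adjusted p = 0.868, 0.469 and 0.589). Sinusoidal endothelial markers had 0 of 18 higher and 0 lower in edgeR (sums 269 to 750.4 against 282 to 589.7 CPM), with 3 at an unadjusted p under 0.05 and 3 called by DESeq2. Continuous endothelial markers had 2 of 8 higher, Cd34, a marker of capillarized vessels, at 46.4, 12.1, 9.96, 13.9 and 6.53 CPM in adenomas 1 to 5, against 1.0, 2.43, 2.19, 2.21 and 1.84 CPM in WT livers 1 to 5 (log2 fold change 2.74 ± 0.55, adjusted p = 0.00992), and Sox17 (log2 fold change 1.26 ± 0.39, adjusted p = 0.0492), and 1 without adenoma 5 (3 with no sex term). Stellate cell and fibroblast markers had 4 of 18 higher, Col1a1, Col3a1, Lum and Acta2 (sums 178 to 1342 against 325 to 691 CPM), and 2 without adenoma 5 (4 with no sex term). Cholangiocyte markers had 4 of 13 higher (sums 210.4 to 886 against 168 to 249 CPM), Spp1, Tspan8, Krt23 and Sox9, and 2 without adenoma 5 (5 with no sex term). The defining keratins Krt7 and Krt19 were low in both groups, Krt7 at 0.243 to 1.99 CPM in the adenomas against 0.43 to 0.81 in old WT and Krt19 at 0.371 to 4.28 CPM in the adenomas against 0.86 to 2.41 in old WT. Of the adipocyte markers 1 of 3 tested was called, Lpl, and 1 without adenoma 5 (2 with no sex term). Of the red blood cell, mesothelial and pancreatic acinar markers 0 of 6, 5 and 2 tested were called in edgeR, with 1, 1 and 0 at an unadjusted p under 0.05 and 1, 1 and 0 called by DESeq2. The part of these cell types in the lower hepatocyte genes was not tested.

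The extracellular matrix list had 14 of 45 genes higher and 2 lower (median 1.10), with 5 higher and 1 lower without adenoma 5 (22 and 3 with no sex term). Among all genes 8.74% were called higher and 7.68% lower. Nid1, nidogen of the basement membrane, was at 131, 76.2, 153, 59.4 and 73.5 CPM in adenomas 1 to 5, against 7.89, 16.4, 18.4, 14.1 and 15.6 CPM in WT livers 1 to 5 (log2 fold change 2.58 ± 0.31, adjusted p = 0.00105). Col1a1, the main fibrillar collagen, was at 86.2, 57.8, 34.5, 21.8 and 68.8 CPM in adenomas 1 to 5, against 9.68, 9.08, 8.51, 17 and 4.99 CPM in WT livers 1 to 5 (log2 fold change 2.58 ± 0.43, adjusted p = 0.00421). Both separated the groups. Spp1, osteopontin, was at 586, 599, 314, 46.9 and 488 CPM in adenomas 1 to 5, against 44, 40.3, 37.9, 40.9 and 51.3 CPM in WT livers 1 to 5 (log2 fold change 3.35 ± 0.57, adjusted p = 0.00491), with adenoma 4 within the WT range. Mmp12, the macrophage elastase, rose (log2 fold change 3.65 ± 0.61, adjusted p = 0.00438). The genes that fell were the collagen Col27a1 (-1.86 ± 0.58) and the protease Mmp19 (-1.06 ± 0.21).

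Liver genes with sex-biased levels were spread unevenly over the adenomas. All 5 adenoma libraries held Xist at 485 to 887 CPM, beside 815 and 594 in the female WT livers 2 and 3 and at most 0.358 in the male WT livers. Cyp4a12a, a male-specific fatty acid hydroxylase, was at 149, 0.322, 0.159, 0 and 1.38 CPM in adenomas 1 to 5, against 199.99, 0.0579, 0, 132 and 313 CPM in WT livers 1 to 5. Adenoma 1 alone lay within the range of the male WT livers. Cyp3a41a, a female-specific P450, was at 0.594, 3.06, 626, 2118 and 19.5 CPM in adenomas 1 to 5, against 0.215, 4781, 5401, 0.201 and 1.03 CPM in WT livers 1 to 5. All 5 adenomas were below the female WT livers. Adenomas 3 and 4 were the highest of them, adenoma 1 lay within the range of the male WT livers, and adenomas 2 and 5 lay between. A1bg, also female-specific, was at 0.731, 1.41, 444, 38.7 and 24.5 CPM in adenomas 1 to 5, against 0, 6863, 6116, 1.07 and 3.23 CPM in WT livers 1 to 5, and the prolactin receptor Prlr at 3.91, 69.8, 243, 282 and 130.4 CPM in adenomas 1 to 5, against 90.8, 721, 659.8, 134 and 204 CPM in WT livers 1 to 5. Every adenoma was below both female WT livers at these 3 female-biased genes. The summed level of 32 genes listed as female-biased was 1468 to 6058 CPM in the adenomas and 20580.0 and 21583 in the female WT livers. It was 295, 468 and 498 CPM in the male WT livers 1, 4 and 5, below every adenoma. Of the 32 genes listed as female-biased Tff3, Adam11 (2.13 ± 0.48) and Slc22a29 (1.22 ± 0.35) rose and Acot3 fell (-3.46 ± 0.86), with 2 higher and 2 lower without adenoma 5 (2 and 0 with no sex term). The WT livers did not bear out that label for Tff3 and Adam11. Tff3 was not higher in the female than in the male old WT livers. At 5 months Adam11 was at 3.05 and 3.15 CPM in the female WT livers and 5.36 to 14.3 in the male ones. Of 25 tested male-biased genes the desmoglein Dsg1c (3.70 ± 0.54), the selenium-binding Selenbp2 (2.34 ± 0.57) and complement C6 (2.29 ± 0.69) rose, and the sulfotransferase Sult5a1 (-4.23 ± 0.77) and Nudt7 (-1.26 ± 0.26) fell, with 4 higher and 1 lower without adenoma 5 (1 and 8 with no sex term). C6 and Slc22a29 had the other sign, uncalled, without adenoma 5 and the sex term. The medians of both lists changed with adenoma 5, from -0.01 to -1.36 and from -0.24 to 0.39 without it, so no direction is given. Their calls stand beside 8.74% higher and 7.68% lower among all genes. Mup and Cyp genes have close paralogs among which reads can be split.

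**Figure D4:**
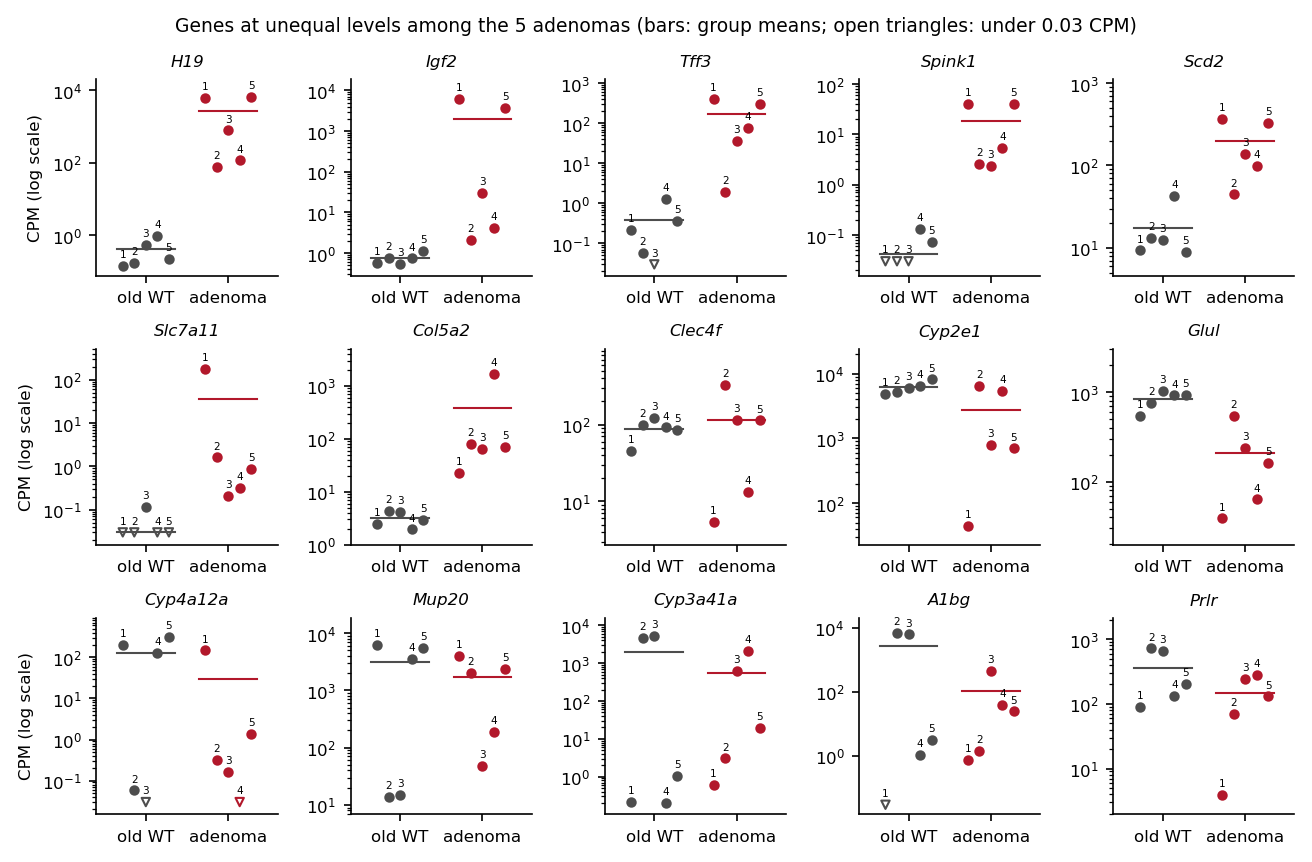
Level of 15 genes per library on a log CPM axis, with WT livers in grey and adenomas in red, numbered 1 to 5, bars at group means and open triangles for levels under 0.03 CPM. Igf2, Tff3 and Spink1 are highest in adenomas 1 and 5, Slc7a11 in adenoma 1 and Col5a2 in adenoma 4, and the sex-biased genes of the last row split both groups.

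Loss of Mlx without a tumor was measured at 5 months, in fasted livers of 4 male MlxKO and 4 male and 2 female WT mice with another Cre line, and is set beside the adenomas without a test between the tables, which were normalized separately. In those livers 227 of 13397 genes were called, 1.69%, with 85 higher and 142 lower (0.634 and 1.06%). Of 12278 genes tested in both sets 206 were called at 5 months and 2007 in the adenomas. Those called in both numbered 57. This is 27.7% of the 5-month calls, beside 16.4% called among all genes tested in the adenoma comparison. It is 2.84% of the adenoma calls, beside 1.69% called among all genes tested at 5 months. Of the 57 genes 22 were lower in both and 8 higher in both, while 27 went opposite ways. The ChREBP and MondoA list had 7 of 31 lower at 5 months. Pklr stood at a log2 fold change of -2.27 ± 0.38 at 5 months and -3.13 ± 0.30 in the adenomas, Khk at -1.65 ± 0.37 and -2.14 ± 0.21, Slc2a2 at -3.23 ± 0.67 and -2.43 ± 0.29, Tkfc at -1.69 ± 0.23 and -1.49 ± 0.26, Thrsp at -3.10 ± 0.69 and -3.01 ± 0.84, and Me1 at -1.0 ± 0.17 and -2.27 ± 0.38. All 6 passed the test in both sets. Pdk1 was lower in both as well, at -1.08 ± 0.18 and -2.59 ± 0.26.

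Other genes were called in the adenomas and not called at 5 months, or called the other way. Fatty acid oxidation genes had 3 of 33 higher and 0 lower at 5 months (median 0.22), beside 22 lower in the adenomas. Among all genes 0.634% were called higher and 1.06% lower at 5 months. The acyl-CoA thioesterase gene Acot1 was at 1.35 ± 0.31 at 5 months and -3.63 ± 0.66 in the adenomas, called in opposite directions. Respiratory chain subunits had 0 of 75 called at 5 months in edgeR (median -0.39), and TCA cycle genes 1 of 31 lower (median -0.10). Cytoplasmic ribosomal proteins had a median of -0.47 at 5 months and -0.03 in the adenomas. Alb was at 0.01 ± 0.22 at 5 months (adjusted p = 0.988), Esr1 at 0.37 ± 0.24 (adjusted p = 0.365), Lpl at -0.12 ± 0.33 (adjusted p = 0.861) and Fabp1 at 0.17 ± 0.40 (adjusted p = 0.825). Feeding state, age, sex, Cre line and tumor all differ between the sets, and the part of each was not tested.

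**Figure D5:**
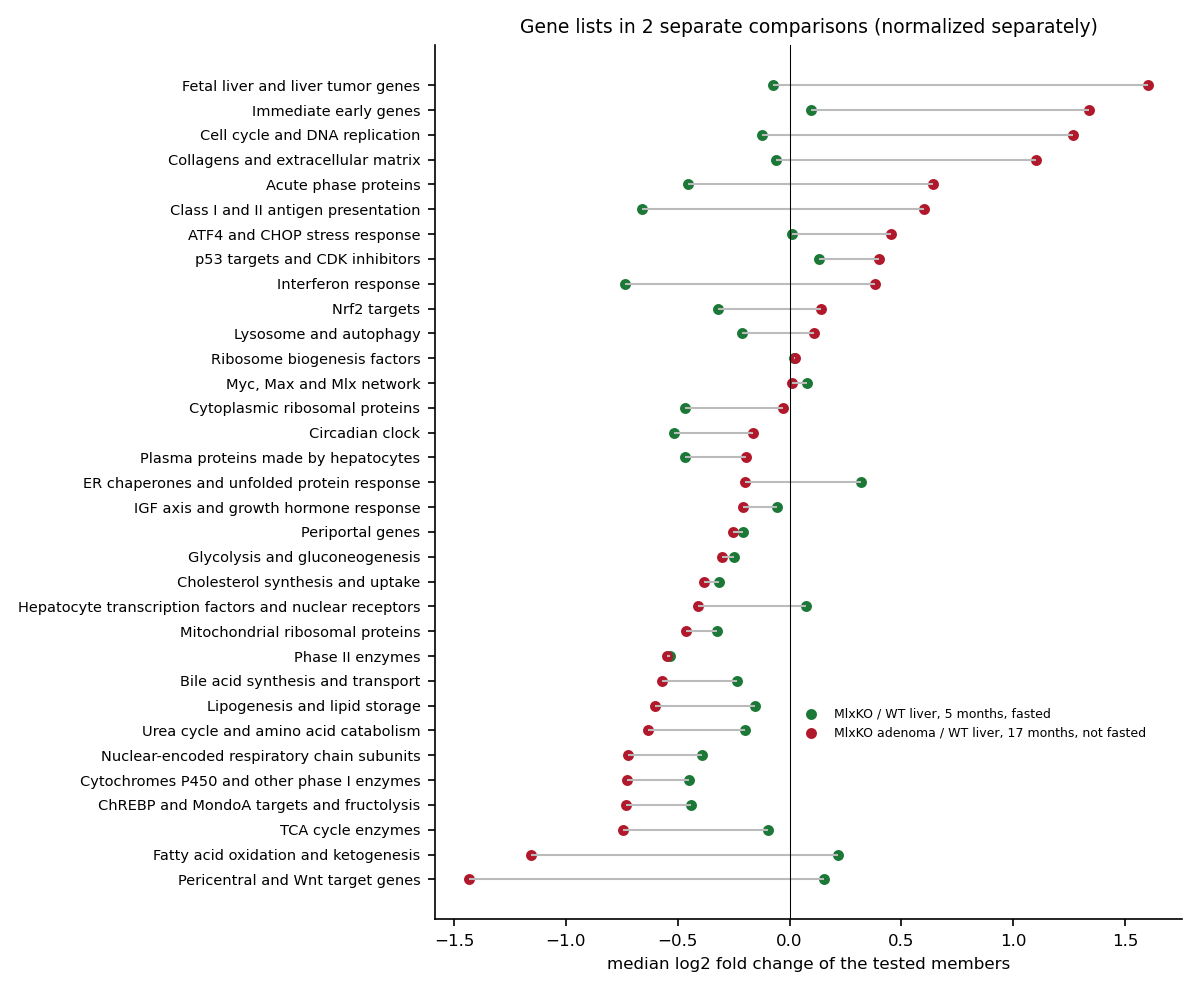
Median log2 fold change of each gene list in MlxKO against WT liver at 5 months (green) and in MlxKO adenomas against WT liver at 17 months (red). The ChREBP and MondoA list lies below 0 in both, and fatty acid oxidation lies above 0 at 5 months and at the lower end in the adenomas.

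The authors' deposited table lists 3343 genes at an adjusted p under 0.05 for this comparison, 2148 higher and 1195 lower in the tumors, and 1913 of the 2290 genes called here are among them. In that table an adjusted p listed as 0 belongs to genes with few or no counts, and these were left out.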

How the data were processed

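The members and gene lists were chosen with earlier results of these data known. Poly(A) RNA of 31 mouse liver or tumor libraries was sequenced. The authors deposited total read counts per gene in a table of old livers and adenomas and another of 5-month livers. The submitters' processing notes name GRCm38.p6 as genome build, and the counts are raw whole numbers. Aligner, counter and use of strand are given nowhere in the sources used here. Normalized columns (30 in the old-liver table and 63 in the 5-month table) were not used. The log2 fold changes and adjusted p-values of the authors' deposited comparison were read to compare calls.

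Genes were kept by filterByExpr (minimum count 10), scaled by TMM and fitted in edgeR 4.0.16 (R 4.3.3) with group and labelled sex. This filter works by group and can keep a gene on its level in the adenomas alone. The quasi-likelihood test was Benjamini-Hochberg adjusted over all 13954 genes, with a threshold of 0.05 and the standard error taken from the F statistic. The 5-month fit used all 4 groups of that table. CPM values are counts divided by TMM-scaled library size. The alternatives included DESeq2 1.42.0, and their effects are given at the end. Depth is given with the libraries. A simulation of 13862 genes with known changes recovered 86 to 87% of 4-fold and 14 to 16.3% of 2-fold changes, with 0 false calls, for the adenoma comparison. It gave every gene the same relative spread (0.385), with no sex effect and no differences among adenomas beyond that spread. The real libraries have both, so these rates describe the simulated setting only. No library pair within a group agreed within sampling noise.

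The naming rule took Mlx, its partners and Myc, the 12 largest separated rises and falls, up to 4 called members per list and direction, the 8 genes varying most among adenomas and the 10 called genes with the highest level. Named outside it after their values were seen were Acot1, Afp, Cdkn1a, Clec4f, Col5a2, Cyp2e1, Fasn, Glul, Gpd1, Hnf4a, Klf10, Krt19, Krt7, Mup20, Prlr, Thrsp, Timd4, Tkfc, Txnip and Vsig4. Promoters came from RefSeq. Some called genes are not reported here.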

Additional observations from a re-analysis of the deposited data

Results flagged for a closer look

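Within each group of 5 libraries, the gap between the highest or lowest library and its nearest neighbour was set against the group's whole range, on log2(CPM + 0.1), for the genes named here. In 24 of 329 groups with a range that gap passed Dixon's 95% limit, where chance flags about 1 group in 20 of those not chosen for their spread. Some of these genes were chosen for a wide range among the adenomas or after their values were seen, and Gldn and Slc7a11 in WT rest on 1 library with few counts beside 4 libraries at 0, so the share is not read against that rate. Adenoma 1 stood above the other 4 adenomas for Cdc25a at 22.5 CPM, Elovl7 at 28.6 CPM, Plk2 at 39 CPM, Slc7a11 at 175 CPM and Ubd at 30.4 CPM. Adenoma 1 stood below the other 4 adenomas for Uqcrb at 27.5 CPM. Adenoma 2 stood above the other 4 adenomas for Fabp1 at 286 CPM, Fos at 11 CPM, Oasl2 at 17.7 CPM and Sec61b at 45.5 CPM. Adenoma 2 stood below the other 4 adenomas for Cat at 1179 CPM. Adenoma 4 stood above the other 4 adenomas for Col5a2 at 1686 CPM. Adenoma 4 stood below the other 4 adenomas for Adam11 at 40.1 CPM, Mki67 at 2.2 CPM and Spp1 at 46.9 CPM. WT liver 1 stood above the other 4 WT livers for Cdkn1a at 25.5 CPM. WT liver 1 stood below the other 4 WT livers for Oasl2 at 2.22 CPM and Trf at 16130.0 CPM. WT liver 2 stood below the other 4 WT livers for Hpx at 2447 CPM. WT liver 3 stood above the other 4 WT livers for Slc7a11 at 0.118 CPM. WT liver 4 stood above the other 4 WT livers for Elovl7 at 0.67 CPM, Gldn at 0.201 CPM and Scd2 at 42.3 CPM. WT liver 5 stood below the other 4 WT livers for Mrps5 at 19.8 CPM.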

How the results depend on the processing

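No paired analysis was possible because the labels give the libraries no replicate number; numbers here follow accession order. The count of called genes (2290) was 692 with 17-month libraries, 165 with female libraries, 3486 with no sex term, 3503 with DESeq2 and 666 without adenomas 1 and 5, the last chosen after seeing the data, as was leaving out adenoma 5 and the sex term together. It ran from 704 to 2906 with 1 library left out, lowest without WT liver 2 and highest without adenoma 4. The 336 called genes on any list numbered 126 with 17-month libraries, 34 with females, 524 with DESeq2, 137 without adenomas 1 and 5, and 134 to 439 with 1 library left out. Of 180 called genes chosen by the naming rule, 96 were called with 17-month libraries, 34 with females, 98 without adenomas 1 and 5 and 103 to 176 with 1 library left out. Fewer samples enter each of these smaller fits. Halved adenoma counts, RLE scaling and no filter on low counts kept these counts within 1.5 times. Mlx passed with no sex term (-0.61), DESeq2 (-0.56), RLE scaling (-0.56) and with neither adenoma 5 nor a sex term (-0.55), and also without adenoma 1 (adjusted p = 0.0365) or adenoma 4 (adjusted p = 0.0402). It ran from -0.65 to -0.33 with 1 library left out. At 5 months the count (227) was 96 with males, 849 with DESeq2 and 45 to 1055 with 1 library left out, lowest without MlxKO liver 4 and highest without WT liver 6. The causes were not tested. The sign turned with 17-month libraries for Clec4f (-1.32), Timd4 (-0.72), Vsig4 (-0.61). The sign turned with no sex term for Cyp4a12a (-2.10), Mup20 (-0.83). The sign turned without adenoma 5 and the sex term for C6 (-0.12), Cyp4a12a (-1.77), Mup20 (-0.94), Slc22a29 (-0.0885). With 1 library left out the log2 fold change took either sign for Clec4f (-0.51 to 0.53), Cyp3a41a (-2.88 to 0.69), Cyp4a12a (-3.81 to 10.12), Krt19 (-0.27 to 0.63), Krt7 (-0.26 to 0.67) and Timd4 (-0.0951 to 1.14), all uncalled. Depth limits low genes: 1 count was worth 0.0201 to 0.0734 CPM.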
